A study of Homo sapiens with 15 samples.

Results

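The genes described here fold and ship the proteins that enter the endoplasmic reticulum (ER), or signal when that folding falls behind. They were chosen by symbol, as 42 named genes among the 57820 gene identifiers of the series, and each matched 1 identifier. In every line 41 of them were above 0, and WFS1, an ER membrane protein, was listed at 0 in all 15 libraries. RNA was sequenced from 3 human acute myeloid leukaemia (AML) lines, HL-60, MOLM-13 and U937, each transduced with the empty lentiviral vector pLKO or with a short hairpin RNA against the ubiquitin ligase RNF5 (shRNF5). MOLM-13 gave 3 pLKO and 2 shRNF5 libraries, U937 gave 2 and 2, and HL-60 gave 3 and 3. No drug or ER stressor was part of these groups, the hairpin used for sequencing is not named, and RNA was taken 7 days after knockdown by the sample records but 5 days by the series record. Nothing in the records says that libraries of a group came from separate cultures, so each p-value measures the spread between libraries, which may be technical. HL-60 cells were grown in IMDM and the other lines in RPMI, so line and medium cannot be told apart.

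The ER receives nascent secretory and membrane proteins through the Sec61 channel, cuts off their signal peptides, and folds them with Hsp70 and Hsp90 chaperones, lectin chaperones and enzymes that form disulphide bonds. When unfolded protein accumulates, 3 sensors in the ER membrane respond: IRE1 (gene ERN1) splices the XBP1 messenger RNA, ATF6 is cut to release a transcription factor, and PERK (gene EIF2AK3) slows translation. Spliced XBP1 and cleaved ATF6 then raise the transcription of many of the chaperone genes below. RNF5 is an ER-anchored ubiquitin ligase that acts in the degradation of misfolded ER proteins, which is the reason to ask how these genes behaved once it was lost. Reads were summed per gene, so splicing of XBP1, cleavage of ATF6 and phosphorylation of PERK were not measured.

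The ER stress response element (ERSE) is the promoter motif through which ATF6 and XBP1 act on this family, and it reads CCAAT, then 9 bases, then CCACG. RefSeq promoter windows (GRCh38.p14, from 250 bases before to 50 after the start site) were matched for 39 of the 42 genes and searched on both strands. An ERSE was found in 8 of the 39 (20.5%) and in 27 of all 35116 windows (0.0769%). The 27 include the 8, and the motif is one already known from promoters of this family, so the shares are a description without a test. A related motif, ERSE-II (ATTGG, 1 base, CCACG), was in 2 of the 39 (5.13%), HYOU1 and SDF2L1, against 0.0541% of all windows. The XBP1 and ATF6 motif TGACGTGG, which may overlap ERSE-II, was in 4 of the 39 (10.3%), against 0.729%. The stretches below are shown because they carry the element in genes of this family that were called in some line (HSP90B1, XBP1, CRELD2, ERO1LB, HYOU1) and in genes that were called in none (HSPA5, CALR, CANX), and capitals mark the fixed letters of the motif, read 5′ to 3′ on the strand of the gene (CGTGG with ATTGG, or with CCAAT in ERSE-II, is the motif on the opposite strand).
HSPA5, chr9:125241391-125241409, minus strand: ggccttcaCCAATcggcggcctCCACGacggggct
HSP90B1, chr12:103930216-103930234, plus strand: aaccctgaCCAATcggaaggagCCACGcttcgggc
HSP90B1, chr12:103930321-103930339, plus strand: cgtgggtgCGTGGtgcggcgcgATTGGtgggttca
XBP1, chr22:28800603-28800621, minus strand: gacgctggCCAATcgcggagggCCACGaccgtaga
CRELD2, chr22:49918554-49918572, plus strand: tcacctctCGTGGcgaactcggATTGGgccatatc
CALR, chr19:12938384-12938402, plus strand: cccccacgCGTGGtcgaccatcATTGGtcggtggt
CANX, chr5:179698778-179698796, plus strand: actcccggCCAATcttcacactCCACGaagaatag
ERO1LB (ERO1B in RefSeq), chr1:236282183-236282201, minus strand: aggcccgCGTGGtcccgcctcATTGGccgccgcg
HYOU1 (ERSE-II), chr11:119057274-119057284, minus strand: gcctgggaCGTGGtCCAATgagtacgc
The eighth gene with an ERSE was SERP1. A match is a description of the letters and says nothing of binding in these cells.

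Values are the deposited normalised read counts, scaled within each line. A gene was called when limma gave a Benjamini-Hochberg adjusted p under 0.1 over all genes of the line and the log2 fold change, on the log2(value + 1) scale, was over 0.4 in size. Estimated depth was between 9700000 and 63800000 reads per library. In MOLM-13 it went with the construct, at 9700000 to 15300000 in pLKO and 63800000 and 24400000 in shRNF5. Those 2 shRNF5 estimates rest on poor fits (share of the spread fitted 0.33 and 0.17, beside 0.88 to 0.93 in the MOLM-13 controls). RNF5 itself fell in every line, from between 1017 and 1223 in pLKO to 76 and 81 in shRNF5 in MOLM-13, from 648 and 843 to 46 and 74 in U937, and from between 506 and 689 to between 37 and 133 in HL-60. Myeloid markers were present in each line (10 of 12 above 0 in HL-60, 11 in U937, 12 in MOLM-13), no erythroid marker was above 0, and T and B cell markers summed to at most 126. The summed myeloid markers moved with the construct in U937, from 44060 to 50950 in pLKO to 25801 to 29513 in shRNF5, and in HL-60, from 127033 to 156601 up to 177985 to 267603. A few granule genes carried these sums. MPO alone read 105563 to 130372 in HL-60 pLKO and 141317 to 207430 in shRNF5. ELANE, PRTN3, AZU1 and PTPRC (3312 to 4266 against 4636 to 5272) were also higher there without overlap, while CD33 was lower (1337 to 1505 against 959 to 1070). In U937 AZU1 (12516 to 13539 against 1749 to 3267) and ELANE (9166 to 11149 against 4077 to 5780) were lower. PRTN3 and the transcription factor SPI1 (1151 to 1962 against 759 to 991) were lower in U937 too, without overlap. CSF1R was higher in U937 (17 to 45 against 69 to 71), and PTPRC, CD33, CEBPA, MPO, ITGAM and LYZ overlapped. The part of these genes in the results below was not tested. In bulk RNA, fewer cells of a type and less RNA per cell cannot be told apart.

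The calls on these genes were mostly in HL-60. In that line 17 of the 41 measured genes rose and 1 fell, where 13.6% of all 12570 genes tested were called up and 12.3% down. In U937, 1 rose and 2 fell, where 6.92% of all 13165 genes were called up and 8.74% down. In MOLM-13, 1 rose and none fell, where 1.03% of all 13026 genes were called up and 1.01% down, and at an unadjusted p under 0.05 limma gave 5 higher and 6 lower. The shares of all genes under that unadjusted p are not given, here or in the paragraphs below. The MOLM-13 counts moved most between fits, to 4 up and 7 down with library weights and to 3 up and 8 down with the numbers in the file names as a block. The shares of all genes called in those fits are not given here. The median log2 fold change of the 41 genes was 0.33 in HL-60, 0.26 in U937 and -0.09 in MOLM-13, beside 0.00, 0.00 and 0.01 over all genes tested. All HL-60 shRNF5 libraries lay above all pLKO libraries for 18 of the 41 genes and below for 2, beside 19.9% and 18.6% of all genes. The same counts were 14 and 5 in U937, beside 29% and 30.2%, and 8 and 12 in MOLM-13, beside 19.6% and 19.2%.

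**Figure D1:**
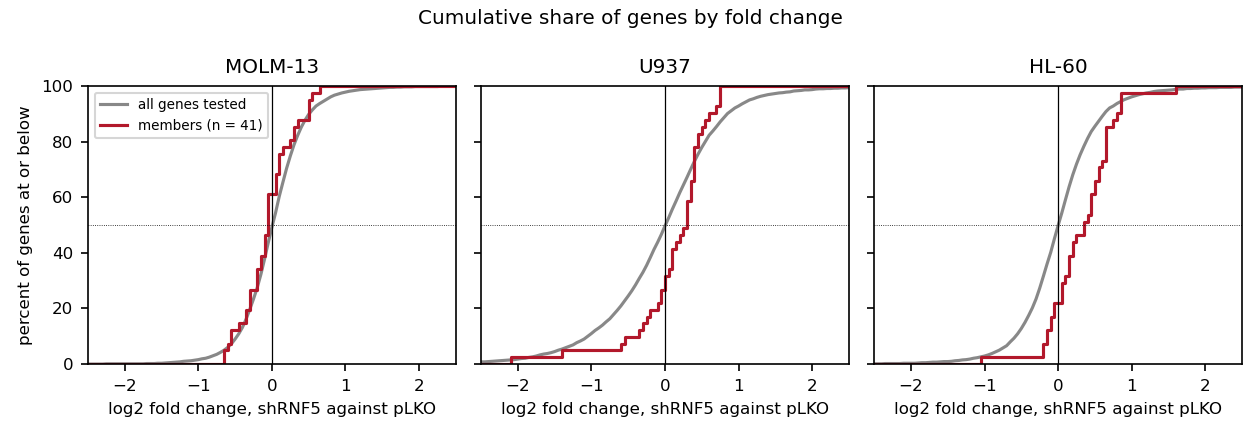
Cumulative percent of genes (vertical axis) at or below each log2 fold change of shRNF5 against pLKO (horizontal axis), for the 41 measured ER genes (red) and all genes tested (grey) in each line. The red curve crosses 50% near 0.33 in HL-60 and near 0.26 in U937, and at -0.09 in MOLM-13, while the grey curves cross at 0.00 to 0.01.

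Of the 10 genes of the Hsp70 and Hsp90 system of the ER lumen and its cofactors, 7 rose in HL-60 (13.6% of all genes were called up), with a median log2 fold change of 0.63, while in U937 and in MOLM-13 none of the 10 was called (at an unadjusted p under 0.05, 0 in U937 and 2, both lower, in MOLM-13). The fit over all 15 libraries called DNAJB11 and DNAJC10 up in U937, and library weights and both replicate blocks called HSP90B1 and SDF2L1 down in MOLM-13. HSPA5, the Hsp70 known as BiP that holds the sensors inactive in unstressed cells, read 15841, 17426 and 12872 in HL-60 pLKO and 18409, 19628 and 22481 in shRNF5. Every knockdown library was above every control, yet the log2 fold change of 0.40 (SE 0.15, adjusted p 0.0926) was under the minimum before rounding, so HSPA5 was not called. It was called up under 5 of the 17 alternatives (library weights, no minimum fold change, the length correction, and without pLKO replicate 2 or shRNF5 replicate 1). In U937 it read 11800 and 8215 against 15676 and 8703, and in MOLM-13 12346, 12754 and 9875 against 9032 and 9527. The U937 groups overlapped and the MOLM-13 knockdown libraries were both lower, with log2 fold changes of 0.25 (SE 0.33, adjusted p 0.657) and -0.32 (SE 0.15, adjusted p 0.33).

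HSP90B1, the ER form of Hsp90 (GRP94), read 20128, 20290 and 17764 in HL-60 pLKO and 29518, 25745 and 36547 in shRNF5, a log2 fold change of 0.65 (SE 0.16, adjusted p 0.0201). It went the other way in MOLM-13, at 53873, 36241 and 29752 in pLKO and 23696 and 25475 in shRNF5, where the groups did not overlap but the difference of -0.66 (SE 0.24, adjusted p 0.23) was not called. In U937 it read 21550 and 15785 against 19895 and 10502, with overlap. DNAJB9, a co-chaperone of BiP and a known target of spliced XBP1, read 327, 319 and 368 in HL-60 pLKO and 592, 411 and 773 in shRNF5, a log2 fold change of 0.76 (SE 0.21, adjusted p 0.0282). The controls were within a narrow band and the knockdown libraries were spread over the wider range above it. Its values were 545, 514 and 492 against 593 and 665 in MOLM-13, and 840 and 280 against 528 and 300 in U937, where the controls alone differed 3-fold.

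CRELD2, a secreted ER-resident protein induced by ER stress, had the largest rise of the 41 genes in HL-60. It read 366, 390 and 347 in pLKO and 936, 870 and 1652 in shRNF5, a 3-fold difference (log2 fold change 1.59, SE 0.22, adjusted p 0.00177). The lowest knockdown library was above the highest control. In MOLM-13 the pLKO libraries alone ran from 366 to 1193, with 545 between them, and the shRNF5 libraries read 392 and 508. In U937 CRELD2 read 520 and 638 against 744 and 443. Neither line separated the constructs, and the 3.26-fold range among MOLM-13 controls was the widest of any of the 41 genes in that group. MANF, a secreted ER stress-inducible factor, read 829, 1109 and 664 in HL-60 pLKO and 1280, 1400 and 1868 in shRNF5 (log2 fold change 0.82, SE 0.20, adjusted p 0.0177). In MOLM-13 it read 851, 768 and 661 against 712 and 706, and in U937 1274 and 1714 against 2094 and 1572, with overlap in both lines. The other called cofactors in HL-60 were HYOU1 (GRP170, nucleotide exchange factor of BiP) at 0.64, DNAJB11 (an ERdj co-chaperone) at 0.63 and DNAJC3 (p58IPK) at 0.41. SDF2L1, which works with DNAJB11, had 0.54 (adjusted p 0.111) and DNAJC10, a disulphide reductase, had 0.04 (adjusted p 0.839), and neither was called.

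The lectin chaperones, calreticulin (CALR) and calnexin (CANX), which bind glycosylated clients, were not called in any line. In the fit over all 15 libraries both were called up in U937, and CALR also with the length correction. Their log2 fold changes in HL-60 were 0.15 (adjusted p 0.6) and 0.10 (adjusted p 0.667). In U937 both shRNF5 libraries were above both controls for CALR (0.73, adjusted p 0.129) and CANX (0.47, adjusted p 0.289). At an unadjusted p under 0.05, CALR alone passed, in U937.

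Of the 10 isomerases and oxidases, 7 rose and 1 fell in HL-60 (median 0.55), beside 13.6% and 12.3% of all genes. In U937 1 fell, beside 8.74% of all genes called down. In MOLM-13 none was called (2 higher and 1 lower at an unadjusted p under 0.05), beside 1.03% of all genes called up and 1.01% down. PDIA6, a protein disulphide isomerase that also attenuates IRE1 and PERK signalling, read 8255, 8227 and 7575 in HL-60 pLKO and 15147, 11149 and 17709 in shRNF5 (log2 fold change 0.85, SE 0.17, adjusted p 0.00775). In U937 it read 11073 and 10933 against 16698 and 11015, and in MOLM-13 12479, 11554 and 8787 against 9966 and 9256. Both of those pairs overlapped. The other isomerases that rose in HL-60 were PDIA3 (0.70), PDIA4 (0.64), P4HB, the prototype protein disulphide isomerase (0.54), and TXNDC11 (0.45), with the proline isomerases PPIB, cyclophilin B (0.62), and FKBP2 (0.57). TXNDC5 had 0.40 (adjusted p 0.208) and was not called. The P4HB call (adjusted p 0.0901) was lost in 7 of 17 alternatives and those of FKBP2 and TXNDC11 in 5 each. The P4HB groups overlapped in HL-60. P4HB also had 0.54 in MOLM-13 and 0.39 in U937, and TXNDC11 had 0.49 and 0.56, none called. For both genes every shRNF5 library was above every control in MOLM-13 and U937. FKBP2 had -0.62 in U937, lower in every shRNF5 library and not called. The fit over all 15 libraries called TXNDC11 and FKBP2 in U937, and library weights called P4HB in MOLM-13.

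One disulphide oxidase fell in HL-60 and its paralogue fell in U937. ERO1L, the ER oxidase that reoxidises protein disulphide isomerase and is induced by hypoxia, read 3263, 2675 and 3557 in HL-60 pLKO and 1962, 1427 and 1242 in shRNF5, a 2.07-fold fall (log2 fold change -1.05, SE 0.18, adjusted p 0.00409). It was the only one of the 41 genes called down in that line. In MOLM-13 it read 2147, 3039 and 3064 against 2447 and 2640, with overlap, and in U937 2427 and 2504 against 3387 and 2938, higher in both knockdown libraries and not called (0.36, adjusted p 0.347). Its paralogue ERO1LB fell in U937, from 1297 and 842 to 210 and 265, a 4.42-fold fall (log2 fold change -2.14, SE 0.31, adjusted p 0.0135). In MOLM-13 the ERO1LB libraries read 1366, 1118 and 1160 in pLKO and 783 and 825 in shRNF5, without overlap but not called (-0.59, SE 0.16, adjusted p 0.137). Library weights and the block on the file-name numbers called ERO1LB down in MOLM-13. In HL-60 the ERO1LB libraries read 276, 323 and 313 against 258, 281 and 277, with overlap.

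**Figure D2:**
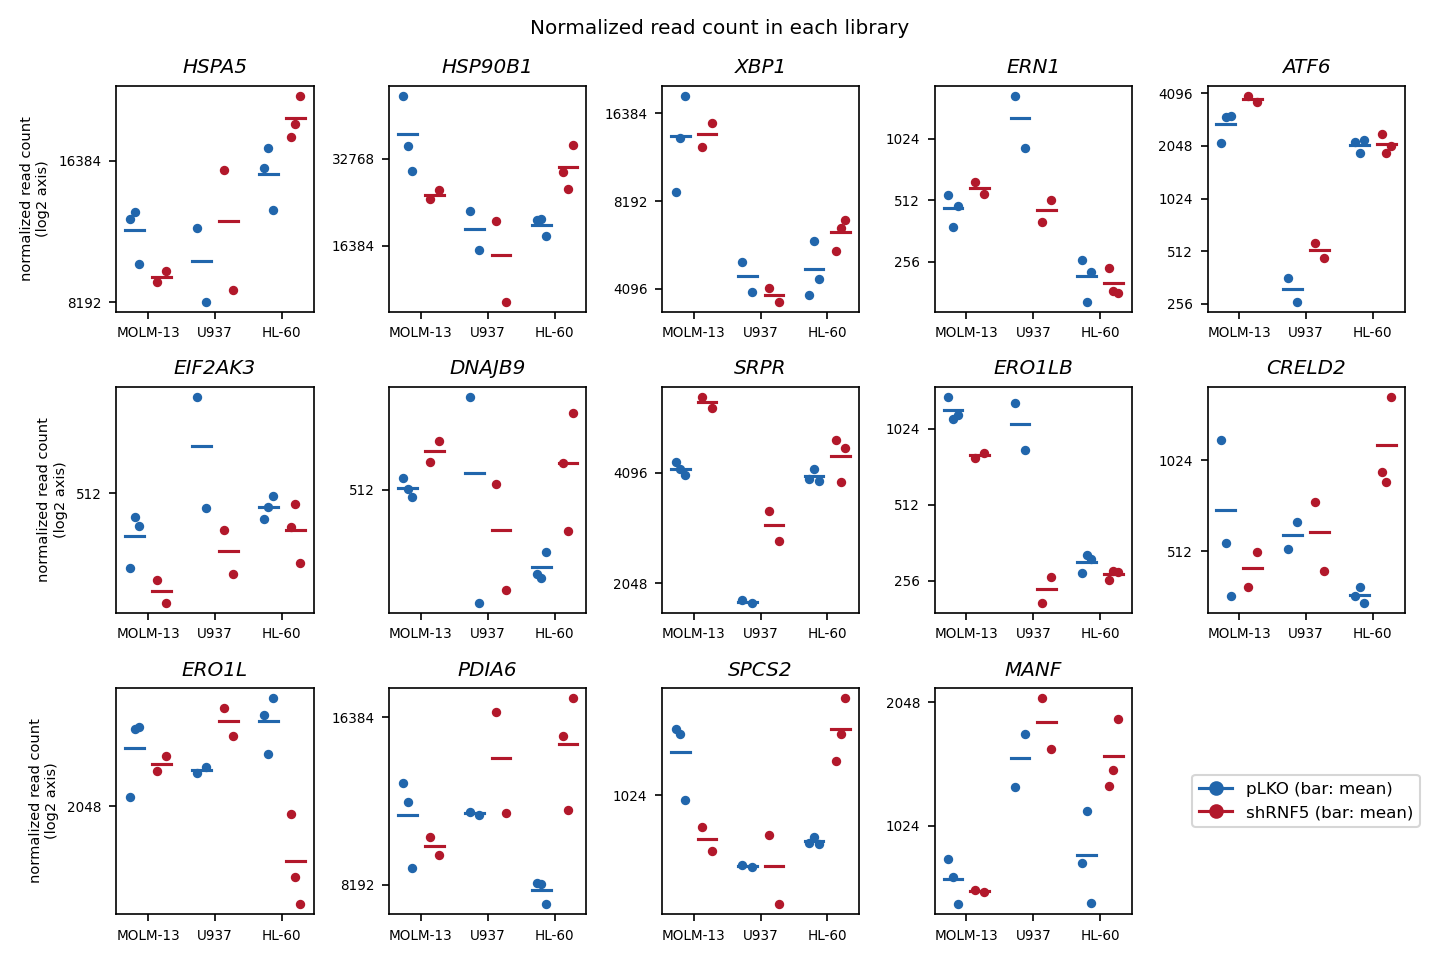
Normalised read count (log2 axis, scaled separately in each line) of 14 genes in every library, pLKO in blue and shRNF5 in red, with a bar at each group mean. CRELD2, PDIA6 and SPCS2 rise in HL-60 knockdown libraries, as from 366, 390 and 347 to 936, 870 and 1652 for CRELD2, while ERO1L falls there and ERO1LB and ERN1 fall in U937.

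Among the genes that bring proteins into the ER, SRPR was called in MOLM-13 and U937 and 2 signal peptidase subunits in HL-60. None of the 7 translocon and signal recognition receptor genes was called in HL-60 (1 higher at an unadjusted p under 0.05, median 0.04), and neither was any of the 4 genes of the translocon-associated TRAP complex (0 at an unadjusted p under 0.05, median -0.02). These medians were -0.17 and -0.11 in MOLM-13 and 0.26 and 0.00 in U937. In MOLM-13 SSR1 (-0.57), SEC61G (-0.38) and SERP1 (-0.35) were lower in every shRNF5 library and not called. Library weights and the block on the file-name numbers called each of them there, and the length correction called SSR1. SRPR, the alpha subunit of the receptor that docks ribosomes at the ER, was the only one of the 41 genes called in more than 1 line. It read 4379, 4189 and 4042 in MOLM-13 pLKO and 6577 and 6167 in shRNF5, a 1.52-fold rise (log2 fold change 0.60, SE 0.13, adjusted p 0.0872). In U937 it read 1838 and 1813 against 3232 and 2674, a 1.61-fold rise (log2 fold change 0.69, SE 0.24, adjusted p 0.098). The HL-60 libraries read 3939, 4192 and 3900 against 5027, 3860 and 4797, with overlap and a log2 fold change of 0.18 (SE 0.13, adjusted p 0.356). Signal peptidase, which trims the imported chains, had 2 of 3 subunits up in HL-60, where 13.6% of all genes were called up. SPCS2 read 797, 824 and 792 in pLKO and 1224, 1415 and 1706 in shRNF5 (log2 fold change 0.83, SE 0.14, adjusted p 0.00408), and SPCS1 had 0.48. In MOLM-13 SPCS2 read 1448, 1411 and 999 against 865 and 765, without overlap and not called (-0.64, SE 0.20, adjusted p 0.178), and in U937 709 and 703 against 833 and 579. Library weights and both replicate blocks called SPCS2 down in MOLM-13.

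Among the sensors and transcription factors, the mRNA of IRE1 fell in U937 and XBP1 rose in HL-60. ERN1 read 1657 and 923 in U937 pLKO and 402 and 511 in shRNF5, a 2.72-fold fall (log2 fold change -1.45, SE 0.32, adjusted p 0.0321). The 2 controls differed widely, but both were above both knockdown libraries. In MOLM-13 ERN1 read 545, 377 and 479 against 629 and 550, and in HL-60 262, 163 and 229 against 238, 183 and 180, and neither was called. Library weights and the block on the file-name numbers called ERN1 up in MOLM-13. XBP1 read 3902, 5986 and 4435 in HL-60 pLKO and 5525, 6643 and 7032 in shRNF5 (log2 fold change 0.44, SE 0.17, adjusted p 0.0885). One control lay above 1 knockdown library, and the call was lost in 8 of 17 alternatives. XBP1 read 8805, 13485 and 18754 against 12586 and 15165 in MOLM-13, and 5057 and 3988 against 4119 and 3701 in U937, with overlap in both.

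ATF6 read 2135, 2990 and 3046 in MOLM-13 pLKO and 3930 and 3632 in shRNF5 (log2 fold change 0.49, SE 0.18, adjusted p 0.242). It read 358 and 264 against 569 and 467 in U937 (0.74, SE 0.30, adjusted p 0.148), and 2152, 1862 and 2216 against 2394, 1871 and 2046 in HL-60 (0.02). Knockdown libraries were above the controls in MOLM-13 and U937 without a call, and the HL-60 groups overlapped. The fit over all libraries called ATF6 up in U937. EIF2AK3, encoding PERK, read 374, 464 and 446 against 356 and 324 in MOLM-13, 766 and 482 against 440 and 366 in U937, and 460, 484 and 507 against 444, 489 and 383 in HL-60. Its log2 fold changes of -0.33, -0.60 and -0.15 were not called. EIF2AK3 was called down in U937 in the fit over all libraries, and in MOLM-13 with the block on the file-name numbers. CREB3L2, an ATF6-like factor of the secretory pathway, had 0.33 in HL-60, 0.49 in MOLM-13 and -0.13 in U937, none called. Library weights called CREB3L2 in MOLM-13, and the length correction called it in HL-60.

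**Figure D3:**
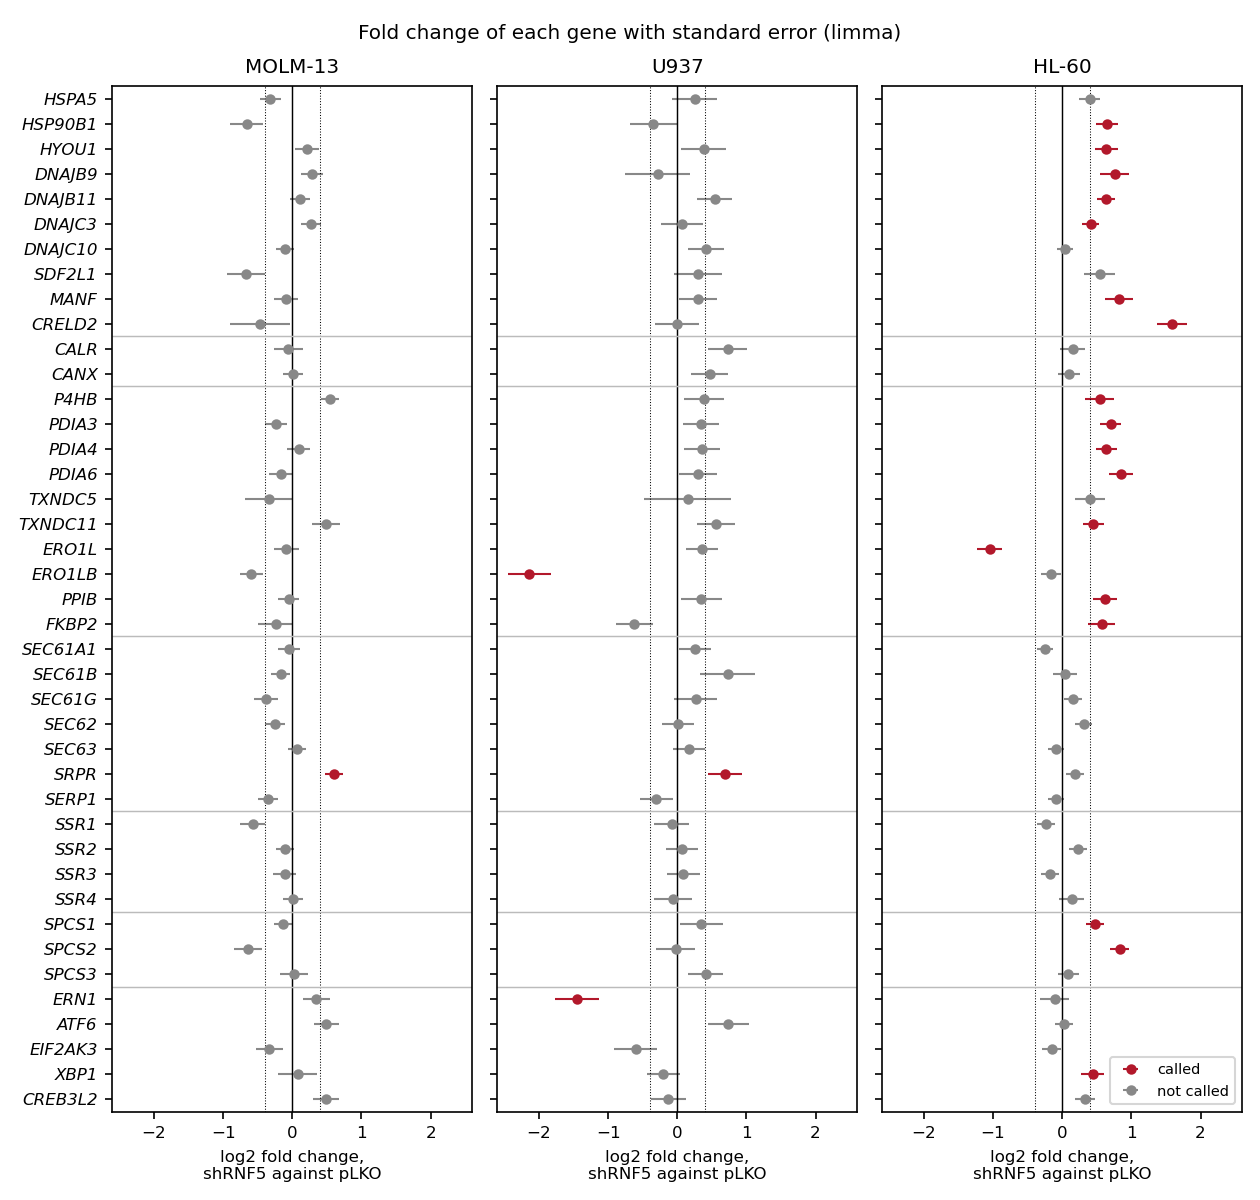
Log2 fold change of shRNF5 against pLKO with its standard error for each of the 41 measured genes, grouped by role from the chaperones at the top to the sensors at the bottom, with dotted lines at 0.4 and -0.4. Red points were called, and 18 of them are in HL-60, 3 in U937 and 1 in MOLM-13.

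The control levels of the sensors, and of the chaperones HSPA5 and CANX, differed between the lines. These are shares of the summed values of each library, scaled to 1000000, given as a description because the lines were normalised separately. ATF6 was 19.1 ± 3.7 (SD, n = 2) in U937 pLKO, below 107.2 ± 20.7 (n = 3) in MOLM-13 and 128.2 ± 12.7 (n = 3) in HL-60, and the MOLM-13 and HL-60 ranges overlapped. ERN1 had the opposite order, at 79.1 ± 30.4 in U937, 18.4 ± 3.5 in MOLM-13 and 13.5 ± 3.3 in HL-60, where the lower pair overlapped. EIF2AK3 was 38.3 ± 11.6 in U937 and 29.8 ± 1.2 in HL-60, which overlapped, and 16.8 ± 1.9 in MOLM-13, below both. HSPA5 was 949 ± 140 in HL-60, 615 ± 144 in U937 and 458 ± 53.4 in MOLM-13, and no 2 ranges overlapped. CANX was 2968 ± 105 in HL-60, above 1010 ± 128 in MOLM-13 and 975 ± 43.2 in U937, which overlapped.

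The difference between the lines' responses was tested in a fit over all 15 libraries and the 11072 genes above 0 in every line. It was called for 8 of 41 genes between MOLM-13 and HL-60, for 10 between U937 and HL-60 and for 2 between MOLM-13 and U937, beside 8.82%, 37.2% and 15.4% of all genes. The HL-60 libraries serve 2 of these contrasts, so their calls are not independent. CRELD2 differed most between MOLM-13 and HL-60, at -2.06 (SE 0.51, adjusted p 0.0411), followed by SPCS2 at -1.47 (SE 0.27, adjusted p 0.0113) and HSP90B1 at -1.30 (SE 0.36, adjusted p 0.0565). ERO1LB differed most between U937 and HL-60, at -1.98 (SE 0.27, adjusted p 0.000463), with CRELD2 at -1.59 (SE 0.54, adjusted p 0.038) and ERO1L at 1.41 (SE 0.28, adjusted p 0.0029). Between MOLM-13 and U937, ERN1 differed by 1.79 (SE 0.39, adjusted p 0.0194) and ERO1LB by 1.55 (SE 0.29, adjusted p 0.00976). The count between MOLM-13 and HL-60 fell to 1 without either MOLM-13 shRNF5 library or HL-60 shRNF5 replicate 3, to 2 without HL-60 pLKO replicate 1 or 3, and to 4 without MOLM-13 pLKO replicate 1. Between MOLM-13 and U937 it was 5 without MOLM-13 pLKO replicate 3, 8 without U937 pLKO replicate 3 or U937 shRNF5 replicate 3, and 1 without U937 shRNF5 replicate 1.

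Single libraries weighed on the counts within lines, and the shares of all genes called without each library are not given here. HL-60 shRNF5 replicate 3 was the highest of its line for 23 of 41 genes (56.1%, beside 26% of all genes), and HL-60 pLKO replicate 3 the lowest for 20 (48.8%, beside 14.7%). Without pLKO replicate 3, 9 genes were called up in HL-60 in place of 17, and HSP90B1, HYOU1, DNAJC3, P4HB, TXNDC11, PPIB, FKBP2 and XBP1 were no longer called. Across 17 alternatives, DNAJB11, MANF, CRELD2, PDIA3, PDIA4, PDIA6, SPCS2 and ERO1L were called in each. U937 shRNF5 replicate 1 was highest for 24 of 41 genes (58.5%, beside 28.7%). All 3 U937 calls were lost without pLKO replicate 2, shRNF5 replicate 1 or shRNF5 replicate 3, and without pLKO replicate 3 SRPR was lost while SEC61B and SPCS1 were gained. In MOLM-13 SRPR was lost without pLKO replicate 2, pLKO replicate 3 or either shRNF5 library, and without pLKO replicate 1 P4HB rose with it and ERO1LB, SERP1 and SSR1 fell.

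**Figure D4:**
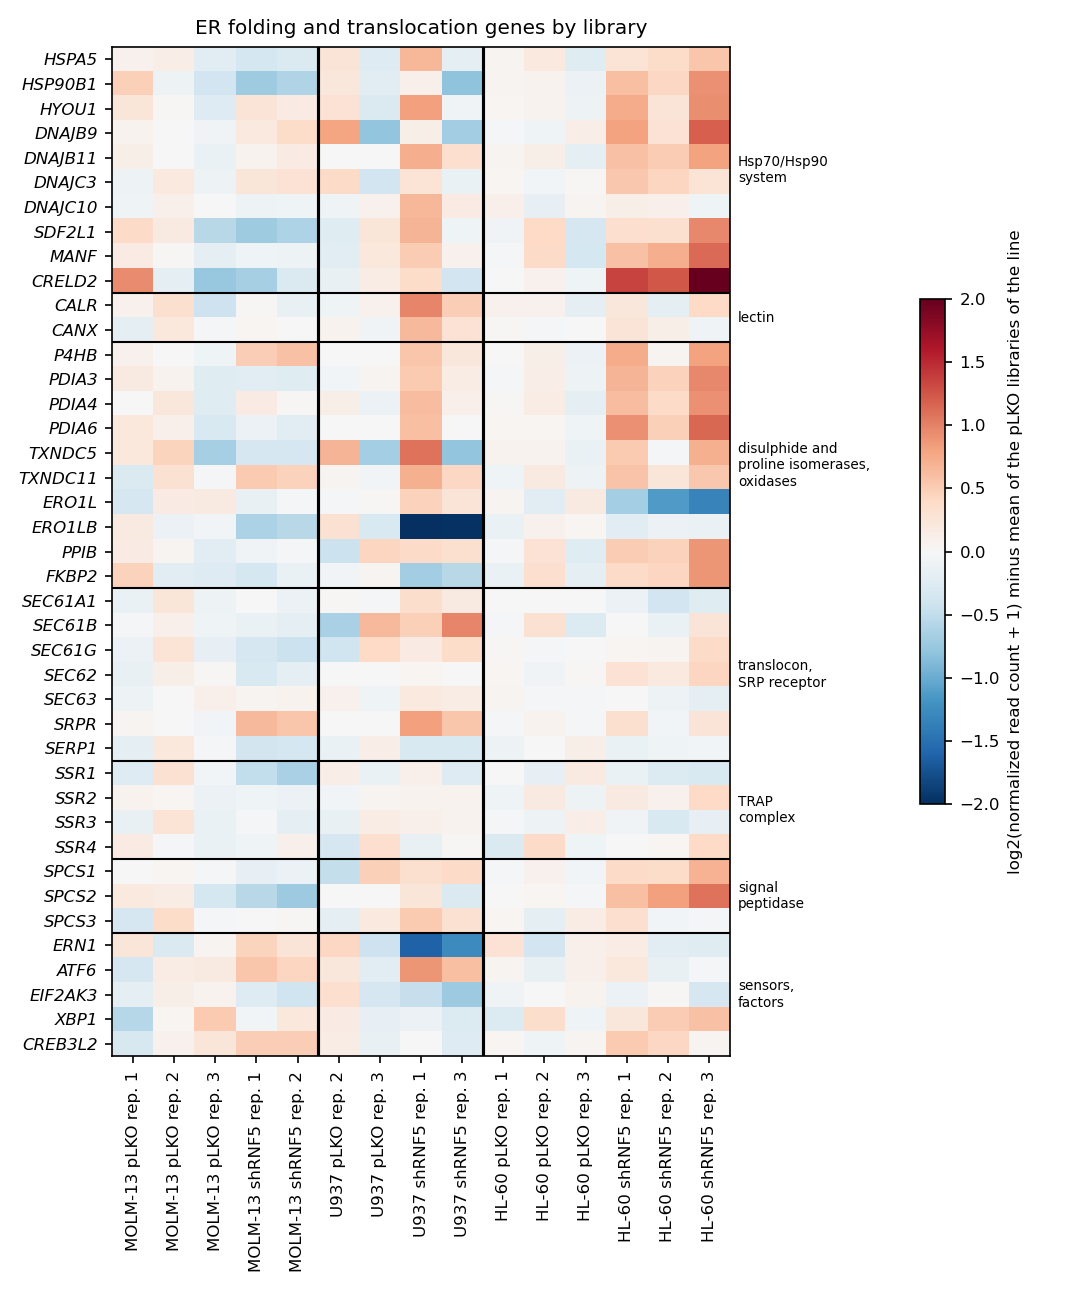
Heat map of log2(normalised read count + 1) minus the mean of the pLKO libraries of the same line, with the 41 measured genes in rows by role and the 15 libraries in columns. Red is above the control mean and blue below, on a scale from -2 to 2, and the red block in the upper rows of the HL-60 knockdown columns is deepest in replicate 3, the highest library for 23 of 41 genes.

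Other listed genes of the pathway were also called, mostly in HL-60. Of 94 further listed genes, 17 rose and 7 fell among 87 tested in HL-60 (beside 13.6% and 12.3% of all genes), 4 rose and 3 fell among 90 in U937 (beside 6.92% and 8.74%), and none rose and 1 fell among 88 in MOLM-13 (beside 1.03% and 1.01%). On the PERK branch 3 of 8 genes rose and 1 fell in HL-60, beside 13.6% and 12.3% of all genes. DDIT3 (the pro-apoptotic factor CHOP) had 0.94 (SE 0.21, adjusted p 0.0134), PPP1R15A (GADD34, which restores translation) 0.84 and CEBPB 0.56. The CHOP target TRIB3 had -0.70 (SE 0.17, adjusted p 0.017). In ER-associated degradation, 4 of 18 rose in HL-60, HERPUD1 (0.64), OS9 (0.76), DERL2 (0.62) and the ligase SYVN1 (0.42), beside 13.6% of all genes. DERL3 (-0.52) and UBE2G2 (-0.48) fell, beside 12.3% of all genes. Of 14 tested genes listed for COPII and KDEL receptor traffic, 4 rose and 2 fell in HL-60, beside 13.6% and 12.3% of all genes. The KDEL receptors KDELR1 (0.44) and KDELR2 (0.77), which return escaped chaperones to the ER, rose with SEC23A (0.79) and SAR1A (0.44). SEC24B (-0.76) and MCFD2 (-0.42) fell. In U937, SIL1, a nucleotide exchange factor of BiP, fell (-1.35, adjusted p 0.0387), and VCP, the ATPase that extracts proteins from the ER, rose (0.85, adjusted p 0.0751). STT3B, a catalytic subunit of oligosaccharyltransferase, fell in MOLM-13 (-1.18, adjusted p 0.0592) and in HL-60 (-0.57, adjusted p 0.0172).

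The ERSE occurred among called and uncalled genes. Of the genes with a promoter window, 3 of 15 called up in HL-60 had an ERSE (20%), HSP90B1, CRELD2 and XBP1, and so had 5 of 24 others (20.8%), among them HSPA5, CALR and CANX. This is a count over the 39 windows searched, of which only short stretches from some are shown above, with no test. Fold changes moved with transcript length across genes, with Spearman's rho of -0.21 in HL-60, 0.16 in U937 and 0.27 in MOLM-13, where genes are not independent replicates. The median transcript length of the ER genes was 3022 bases, beside 3103 over all genes in HL-60, and correcting for length left 17 of the 18 HL-60 calls in place, without XBP1, and added CREB3L2, DNAJC10, HSPA5, SDF2L1 and SEC62. Some counts are uncertain because exons are shared with another gene. In the GRCh37 annotation SPCS1 shares 52.8% of its exon bases with NEK4 and PDIA6 25.2% with ATP6V1C2, both on the opposite strand, PPIB 26.6% with SNX22, also opposite, and TXNDC5 60.9% with the readthrough gene BLOC1S5-TXNDC5 on the same strand. FKBP2, called up in HL-60, shares 71.0% with ENSG00000286264 on the same strand, a gene with no row in the tables used here. Whether the counting used strand is not given in the sources used here.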

How the data were processed

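The 15 RNA-seq libraries of 3 AML lines were assigned to 6 groups from the line and construct in their titles. The sample records name a 3′ end kit (QuantSeq FWD) and the methods a poly(A) directional kit. The authors trimmed reads with cutadapt, aligned them to hg19 with STAR, counted them with featureCounts and normalised them using edgeR and SARTools. What they deposited is treated as a score: read counts that the authors divided by a library factor, separately for each line, and rounded to integers, with genes removed by their filter set to 0. Reads per library were inferred from gaps between the rounded values, and low values are the least precise.

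limma 3.58.1 (R 4.3.3) was run on log2(value + 1) with a mean-variance trend, per line, two-sided, on genes with a value above 0 in that line. Calls needed a log2 fold change over 0.4 in size and a Benjamini-Hochberg adjusted p under 0.1. Contrasts of the responses of 2 lines came from one fit and had no fold minimum. The scripts were tested on simulated data.

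The members, lists and thresholds were chosen with earlier results of these data known. Values in every library were given for HSPA5, HSP90B1, XBP1, ERN1, ATF6, EIF2AK3 and DNAJB9, for genes called in 2 or more lines, for the 5 largest called changes per line and for the 4 largest called differences per contrast. Alternatives covered the pseudocount, a filter on low values, scaling, trend, library weights, thresholds, a joint fit, the replicate number as a block, each library left out, and, added after seeing the data, a correction for transcript length and a block on the numbers in the MOLM-13 file names. RefSeq promoter windows are of GRCh38.p14 and gene overlaps of GRCh37 (GENCODE), and positions were not converted between them.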

Additional observations from a re-analysis of the deposited data

Results flagged for a closer look

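The responses of 14 genes differed between lines, in 20 gene and contrast pairs. The difference itself was tested (limma, 1 fit over 15 libraries, Benjamini-Hochberg adjusted p under 0.1). Values are in log2 units, the first line's response minus the second's. Of the 41 measured genes, 2 passed for MOLM-13 against U937, where 15.4% of all genes did. For HL-60 the counts were 8 against MOLM-13 (all genes 8.82%) and 10 against U937 (all genes 37.2%). Only the contrast of MOLM-13 with HL-60 thus had a larger share among the 41 than over all genes. Between MOLM-13 and U937, ERO1LB differed by 1.55 (adjusted p 0.00976) and ERN1 by 1.79 (0.0194). Both fell in U937, and in MOLM-13 their log2 fold changes were -0.59 and 0.35.

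Between MOLM-13 and HL-60, CRELD2 differed by -2.06, SPCS2 by -1.47, HSP90B1 by -1.30, PDIA6 by -1.02, PDIA3 by -0.94, MANF by -0.91 and SEC62 by -0.55, each with a positive log2 fold change in HL-60 and a negative one in MOLM-13. ERO1L differed by 0.96, with -1.05 in HL-60 and -0.09 in MOLM-13. The adjusted p-values ran from 0.0113 (SPCS2) to 0.0976 (MANF).

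Between U937 and HL-60, ERO1LB differed by -1.98, CRELD2 by -1.59, ERN1 by -1.34, FKBP2 by -1.20, HSP90B1 by -1.0 and SPCS2 by -0.86, and the differences of the other sign were ERO1L at 1.41, ATF6 at 0.73, SRPR at 0.51 and SEC61A1 at 0.51. The adjusted p-values ran from 0.000463 (ERO1LB) to 0.0744 (SEC61A1). Depth and culture medium differ between the lines, depth also differs between the constructs in MOLM-13, and their part in these differences was not tested.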

How the results depend on the processing

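Of the single-gene results called in the main fits, none changed direction under the alternatives run. The 104 single-gene results also hold uncalled ones, whose direction was not checked. With median-of-ratios rescaling, a minimum mean of 50, and a pseudocount of 0.5 or 10 the same calls were made in each line. Without the mean-variance trend the genes called up were 0 in MOLM-13 and 0 in U937, and down 1 in U937. With adjusted p under 0.05, up calls were 0 in MOLM-13 and 0 in U937, and differences numbered 6 between U937 and HL-60 and 3 between MOLM-13 and HL-60. Library weights gave 4 up and 7 down in MOLM-13, and one fit over all libraries gave 7 up and 4 down in U937. The correction for transcript length, chosen after seeing the data, gave 2 up and 1 down in MOLM-13, 2 up in U937 and 7 differences between MOLM-13 and U937. The shares of all genes called in each alternative are not given here, so these shifts are not shown to be particular to the ER genes. The cause of these shifts was not tested.

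Same-numbered libraries had correlations of their deviations of -0.133 and -0.447 in MOLM-13 and 0.386, 0.120 and -0.047 in HL-60. The HL-60 pairs with different numbers ran from -0.441 to 0.296. The 2 MOLM-13 shRNF5 libraries deviate from their mean in mirror image, so each correlation there has a counterpart of opposite sign. Whether the replicate numbers pair the libraries could not be decided from these values. With the replicate block, 0 were called up and 3 down in MOLM-13 and 17 up and 1 down in HL-60. The MOLM-13 shRNF5 file names carry other numbers than the titles followed here, and by those numbers the correlations of the 2 pairs were 0.447 and 0.266 and the replicate block gave 3 up and 8 down in MOLM-13, an alternative chosen after seeing the data. Which numbers are right could not be settled from these sources. U937 shares 1 number and could not be fitted with a block.

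Leaving out each library in turn gave 0 to 2 up and 0 to 3 down in MOLM-13, 0 to 2 up and 0 to 2 down in U937, and 9 to 17 up and 1 down in HL-60. Differences ranged from 1 to 8 between MOLM-13 and U937, 7 to 12 between U937 and HL-60, and 1 to 11 between MOLM-13 and HL-60. Where an arm was left with 1 library, it was assumed to vary like the others of the fit. The shares of all genes called without each library are not given beside these counts.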
